A study of Mus musculus with 10 samples.

Results

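The genes of transferrin and cellular iron handling were followed in sorted skeletal stem cells and marrow mesenchymal cells of the mouse. All 9 listed genes (Trf, Tfrc, Slc11a2, Fth1, Ftl1, Slc40a1, Cp, Hp and Ireb2) were found by gene symbol among the 15078 genes of the expression table, and all 9 passed the filter on low values. RNA sequencing covered 10 libraries in 3 groups. Bone marrow mesenchymal stem cells of the graft BM-MSC group (n = 4) came from femurs that had been grafted under the skin of wild-type hosts 5 months earlier. The donor bones carried a tamoxifen-inducible Cre recombinase under the periostin (Postn) promoter and a tdTomato reporter (genotype label: transgenic POSTN-CRE), tamoxifen was given after grafting, and only Tomato+ cells were taken. These libraries therefore hold the descendants of cells in which the Postn promoter was active, and not all stromal cells of the graft. The BM-MSC (n = 3) and P-SSC (n = 3) groups came from marrow and periosteum of wild-type mice, which the labels give as host at steady state with no treatment and as re-analyses of samples deposited earlier, and their age and sex were not used here. All cells were sorted as CD45- Ter119- CD31- CD51+CD200+. In libraries BM-MSC 2+4 and P-SSC 2+5 RNA of 2 mice was combined, and each counted as 1 replicate, so p-values measure the spread between these libraries.

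Iron travels in plasma bound to transferrin, and cells take it up through the transferrin receptor into endosomes, from where a divalent metal transporter carries it to the cytosol. Surplus iron is stored inside ferritin, a shell of heavy and light chains, and leaves the cell through ferroportin with the help of a copper ferroxidase. In marrow most of this iron is used by erythroblasts to make heme, and macrophages return it from old red cells, while haptoglobin binds free hemoglobin. Iron regulatory proteins, of which Ireb2 encodes one, bind hairpins called iron responsive elements (IREs) in the untranslated regions of several of these mRNAs. Binding in a 5′ UTR blocks translation and binding in a 3′ UTR stabilises the mRNA, so mRNA levels of the ferritins and ferroportin do not give their protein levels.

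Of the 9 genes 4 held such a hairpin, and the sequences are shown because they are the form of the element that iron regulatory proteins bind in these 4 mRNAs. A script searched the UTRs of the 9 genes in GENCODE M21 (genome build GRCm38) on the transcribed strand for C, any 5 bases, CAGTGN and 5 bases that pair with the first 5, allowing G-T pairs. At least 1 match was present in the 5′ UTRs of 26 of 13386 genes (0.194%) and in the 3′ UTRs of 105 of 13539 genes (0.776%). Capitals mark the loop, and each sequence reads 5′ to 3′ on the strand of the gene.
Fth1, 5′ UTR, chr19:9982732-9982760, plus strand: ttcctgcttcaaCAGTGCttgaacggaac
Ftl1, 5′ UTR, chr7:45459779-45459807, minus strand: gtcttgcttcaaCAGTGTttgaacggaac
Slc40a1, 5′ UTR, chr1:45925465-45925493, minus strand: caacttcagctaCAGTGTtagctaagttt
Tfrc, 3′ UTR, chr16:32631219-32631247, plus strand: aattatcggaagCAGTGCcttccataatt
Tfrc, 3′ UTR, chr16:32631598-32631626, plus strand: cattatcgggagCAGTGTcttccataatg
Tfrc, 3′ UTR, chr16:32631663-32631691, plus strand: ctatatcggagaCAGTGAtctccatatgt
Tfrc, 3′ UTR, chr16:32631710-32631738, plus strand: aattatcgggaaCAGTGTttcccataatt
The 2 ferritin chains and the exporter Slc40a1 held 1 match each in their 5′ UTR, and the receptor Tfrc held 4 in its 3′ UTR. In the UTRs of Trf, Slc11a2, Cp, Hp and Ireb2 no stretch matched these letters. Slc11a2 has a known IRE in the 3′ UTR of one of its isoforms, so the letters searched do not find every element.

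The libraries held 15415421 to 25223295 reads. A floor of 3 reads, which covers counting error only, was 0.119 to 0.195 ppm of a library's reads. The summed marker genes followed the labels: 4 marrow stroma genes (Cxcl12, Lepr, Kitl, Ebf3) summed to 587650 to 779490 in graft BM-MSCs, 772690 to 1048000 in BM-MSCs and 4543 to 8872 in P-SSCs, and 5 periosteum genes summed to 198330 to 377390 in P-SSCs, against 6648 to 14441 in the other libraries. Of these 5, Postn, Fmod, Cilp and Pi16 were higher in every P-SSC library than in every marrow library, and Ctsk was not (means of 6828 in P-SSCs and 7246 in graft BM-MSCs). GC-rich genes were high in the 4 graft libraries and in P-SSC 4, by 1.37 to 2.44 on the log2 scale relative to genes of middle GC content, and low in the other 5 libraries (-1.78 to -1.57). Graft BM-MSCs and BM-MSCs therefore cannot be told apart from this split of the libraries. Where the split enters a fit as a covariate below, its effect is estimated only from P-SSC 4 against P-SSC 1 and 2+5. Changes of the graft group in that fit thus depend on the single library P-SSC 4. Graft libraries also listed 22.6% to 38.3% of the genes at 0, against 11.5% to 19.0% in the others. These are bulk samples, in which fewer cells of a type and less RNA per cell cannot be told apart.

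Of the 9 iron genes 4 separated marrow cells from periosteal cells, with an adjusted p under 0.05 (limma) in both comparisons with P-SSCs. Of all 13644 genes tested, 18.1% were called for graft BM-MSCs against P-SSCs and 9.15% for P-SSCs against BM-MSCs. The 9 genes were chosen with earlier results of these data known. Together the 9 took 2.03% to 3.30% of all reads in the 4 graft BM-MSC libraries and 2.81% to 2.95% in the 3 BM-MSC libraries, but 0.555% to 0.716% in P-SSCs. Trf, Slc40a1, Cp and Hp were each at least 16.3 times higher in both marrow groups than in P-SSCs by the ratio of group means. The 2 ferritin chains were among the 52 most abundant genes of every library. Tfrc and Ireb2 were low in all 3 groups.

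**Figure D1:**
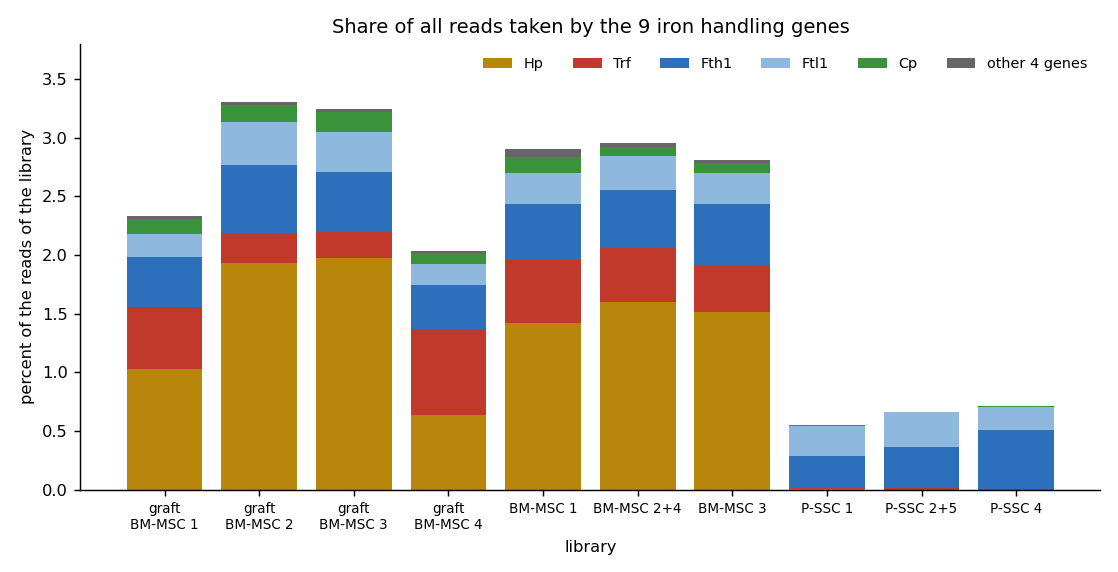
Percent of all reads of each library (vertical axis) taken by the iron handling genes, stacked by gene, with 1 bar per library. The 7 marrow libraries reach 2.03% to 3.30% and the 3 P-SSC libraries 0.555% to 0.716%, nearly all of it ferritin, and within the graft group libraries 2 and 3 hold more Hp and less Trf than libraries 1 and 4.

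Graft BM-MSCs against P-SSCs asked how Tomato+ cells in grafted marrow differ from cells of the periosteum. Of the 9 genes, 4 were higher in graft BM-MSCs (limma, Benjamini-Hochberg adjusted p under 0.05), beside 18.1% of all 13644 genes tested, 6.08% called higher and 12.0% called lower. None of the 9 was called lower. The split of all genes depended on scaling: 830 were higher and 1634 lower as deposited, 1247 and 1241 after quantile normalization, and 1583 and 973 after a correction for GC content, while the same 4 iron genes were higher in each. Values did not overlap between the groups for 5 of the 9, against 26.6% of all genes, the fifth being Ireb2. The median log2 change of the 9 was 0.78, and that of all genes was -0.47.

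Graft BM-MSCs against BM-MSCs asked how the grafted cells compare with the cells normally found in marrow. None of the 9 genes passed, against 7.67% of all genes, 2.61% called higher and 5.06% called lower. All genes split into 356 higher and 690 lower, into 588 and 435 after quantile normalization and into 887 and 358 after the GC correction. At an unadjusted p under 0.05 limma gave 3 (Tfrc, Fth1 and Slc40a1, all lower in graft BM-MSCs), against 25.5% of all genes. At an adjusted p under 0.05 edgeR called 0 of the 9, and DESeq2 called 1, Slc40a1, beside 1948 of all genes. Groups did not overlap for 2 of 9, Fth1 and Slc40a1, against 25.0% of all genes. The median log2 change was -0.52 for the 9 and -0.53 for all genes.

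P-SSCs against BM-MSCs compared both cell types at steady state. The same 4 genes were called, all lower in P-SSCs, beside 9.15% of all genes, 4.57% called higher and 4.58% called lower. Groups did not overlap for 6 of 9 (these 4, Tfrc and Slc11a2), against 30.9% of all genes. The median log2 change was -4.13 for the 9 and 0.0022 for all genes. The 3 comparisons share libraries, so their results are not independent of each other. Leaving out any 1 of the 10 libraries left the 4 genes called in both comparisons with P-SSCs.

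**Figure D2:**
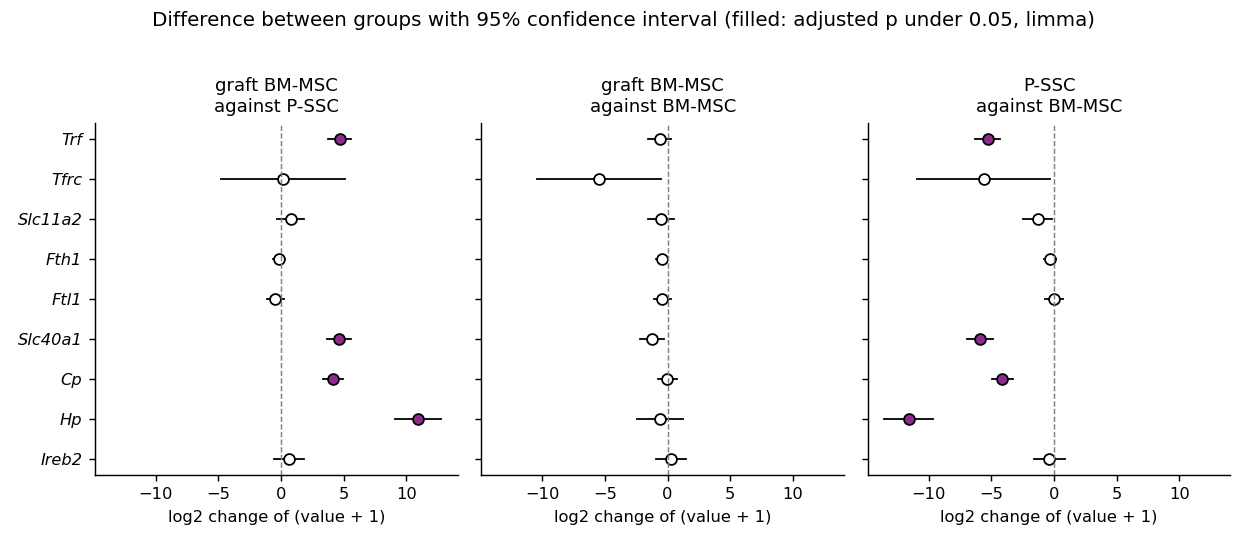
Log2 change of (value + 1) with 95% confidence interval for each iron gene (rows) in the 3 comparisons (panels), with filled points for an adjusted p under 0.05 in limma. Trf, Slc40a1, Cp and Hp are filled in both comparisons with P-SSCs and none is filled between graft BM-MSCs and BM-MSCs. Tfrc has the widest intervals of the 9.

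Trf encodes transferrin, the iron carrier of plasma, which is made mainly by the liver. Normalized counts (reads divided by the size factor of the library) were 75207, 37036, 34571 and 106779 in graft BM-MSC 1 to 4, 96627, 94286 and 71614 in BM-MSC 1, 2+4 and 3, and 2193, 3354 and 1461 in P-SSC 1, 2+5 and 4. Every marrow library was above every P-SSC library, while graft and BM-MSC values overlapped. Trf ranked 7 to 44 among all genes in marrow libraries and 1015 to 2047 in P-SSCs.

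The ratio of means was 27.1 for graft BM-MSCs over P-SSCs and 37.5 for BM-MSCs over P-SSCs. On the log2(value + 1) scale the changes were 4.68 ± 0.41 (SE, adjusted p = 4.75e-05, limma) and, for P-SSCs against BM-MSCs, -5.30 ± 0.44 (adjusted p = 4.66e-05). Graft BM-MSCs differed from BM-MSCs by -0.62, with a 95% interval of -1.52 to 0.29 (adjusted p = 0.372). Trf took 0.435% ± 0.245 (SD, n = 4) of the reads in graft BM-MSCs, 0.461% ± 0.0733 (n = 3) in BM-MSCs and 0.0109% ± 0.00337 (n = 3) in P-SSCs. Two-sided exact permutation tests gave p = 0.0571 for graft BM-MSCs against P-SSCs and p = 0.1 for P-SSCs against BM-MSCs, the smallest values that 4 against 3 and 3 against 3 libraries allow. Adjusted over the 3 pairs, both permutation values were 0.15.

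Of 8 hepatocyte genes 3 were in the table, and their sum was 0 to 399.6 in graft BM-MSCs, 0 to 37.5 in BM-MSCs and 0 to 23.3 in P-SSCs, with Alb not among the genes analysed here. In the graft, Ahsg was at 228 and 400 in libraries 1 and 4, and Apoh and Apoa2 were at 276 and 109 in library 2. The part of liver RNA in the Trf values was not tested. Trf shares 2108 of its 3320 exon bases with Gm20425 on the same strand, so its counts are uncertain where the authors' counting treats overlapping genes as ambiguous. Gm20425 was not analysed here.

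Tfrc, the receptor that takes up iron-loaded transferrin, was scarce. It was at 0 in graft BM-MSC 1, 2 and 3 and at 246 in graft BM-MSC 4. In BM-MSC 1, 2+4 and 3 it was at 108, 70.7 and 653, and in P-SSC 1 at 42.6 with 0 reads in P-SSC 2+5 and 4. All 3 BM-MSC libraries held Tfrc reads, as did 1 of 4 graft libraries and 1 of 3 P-SSC libraries.

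None of the comparisons passed the adjusted threshold in limma with all libraries. The log2 change was -5.44 ± 2.23 (SE) for graft BM-MSCs against BM-MSCs (adjusted p = 0.160), -5.61 ± 2.38 for P-SSCs against BM-MSCs (adjusted p = 0.226) and 0.17 ± 2.23 between the graft and P-SSC groups (adjusted p = 0.973). Without graft BM-MSC 4 the first became -7.43 with an adjusted p of 0.0279, and over the 10 libraries left out in turn this p ranged from 0.0279 to 0.393. On the reads, edgeR and DESeq2 gave smaller changes of -2.16 and -2.20 for it, with adjusted p of 0.718 and 0.727.

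Erythroblasts express Tfrc strongly, and red cell markers, like Tfrc, had their highest group mean in BM-MSCs. The 10 markers summed to 1566 to 27755 in graft BM-MSCs, 59544 to 214660 in BM-MSCs and 208 to 1407 in P-SSCs, although the sort removed Ter119+ cells. BM-MSC 3 had both the most Tfrc and the highest sum. Within the other groups the 2 did not run together: graft BM-MSC 2 had the highest graft sum (27755) and no Tfrc read, against 11072 and a Tfrc of 246 in graft BM-MSC 4, and P-SSC 1, the only P-SSC library with Tfrc, had the lowest sum of all (208). All 10 markers were above 0 in BM-MSCs. Slc4a1, Rhag and Epb42 were at 0 in every graft library, and Slc4a1, Alas2, Rhag and Epb42 in every P-SSC library. The part of red cell RNA in the Tfrc values was not tested.

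Slc11a2 encodes the divalent metal transporter that moves iron across the endosomal membrane. Its values were 417, 336, 939 and 495 in graft BM-MSC 1 to 4, 700, 605 and 905 in BM-MSC 1, 2+4 and 3, and 471, 310 and 175 in P-SSC 1, 2+5 and 4. BM-MSC values all lay above those of P-SSCs, with a log2 change of -1.30 (95% interval -2.44 to -0.15) that did not pass adjustment (adjusted p = 0.185, limma). Graft values spanned both groups, and the changes were 0.78 against P-SSCs (adjusted p = 0.295) and -0.52 against BM-MSCs (adjusted p = 0.521). Of its 6354 exon bases 402 overlap Gm5475 on the opposite strand.

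The ferritin genes were high in all libraries, and none of the comparisons passed the threshold. Fth1, the heavy chain with the ferroxidase site, was at 60409, 85811, 78943 and 54121 in graft BM-MSC 1 to 4. It was at 86552, 101316 and 98395 in BM-MSC 1, 2+4 and 3, and at 57997, 81273 and 93280 in P-SSC 1, 2+5 and 4. All graft values lay below all BM-MSC values, and P-SSC values overlapped with both. The change between graft BM-MSCs and BM-MSCs was -0.47 ± 0.21 (SE, adjusted p = 0.187, limma), close to the median of all genes in that comparison. The other changes were -0.15 for graft BM-MSCs against P-SSCs (95% interval -0.61 to 0.31) and -0.32 for P-SSCs against BM-MSCs (-0.82 to 0.17).

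Ftl1, the light chain that helps to lay down the iron core, was at 28514, 53835, 52802 and 25290 in graft BM-MSC 1 to 4. It was at 46919, 58185 and 47962 in BM-MSC 1, 2+4 and 3, and at 53415, 67948 and 37897 in P-SSC 1, 2+5 and 4. All 3 groups overlapped. The changes were -0.42 for graft BM-MSCs against BM-MSCs (95% interval -1.09 to 0.25), -0.45 for graft BM-MSCs against P-SSCs (-1.12 to 0.22) and 0.02 for P-SSCs against BM-MSCs (-0.69 to 0.74). GENCODE M21 names 2 pseudogenes of each ferritin gene, and reads shared with such copies make these values uncertain.

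The heavy chain's share of both chains, Fth1/(Fth1 + Ftl1), was 64.4% ± 4.29 (SD, n = 4) in graft BM-MSCs, 65.2% ± 1.88 (n = 3) in BM-MSCs and 59.2% ± 10.4 (n = 3) in P-SSCs. P-SSC 1 and 2+5 had the lowest shares of all 10 libraries, 52.1% and 54.5%, and P-SSC 4 the highest, 71.1%. P-SSC 4 is also the P-SSC library in which GC-rich genes were high, and the part of this in the share was not tested. Two-sided exact permutation tests gave p = 0.4 for either marrow group against P-SSCs and 0.8 between the marrow groups. Adjusted over the 3 pairs these were 0.6 and 0.8. The smallest p that such tests allow is 0.0571 with 4 against 3 libraries and 0.1 with 3 against 3. The tests could therefore not pass the threshold used here and do not decide whether the groups differ in this share.

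Slc40a1 encodes ferroportin, the only known cellular iron exporter. It was at 2542, 2673, 2425 and 1494 in graft BM-MSC 1 to 4, at 11144, 4605 and 2972 in BM-MSC 1, 2+4 and 3, and at 101, 77.7 and 93.1 in P-SSC 1, 2+5 and 4. The 3 groups did not overlap anywhere: P-SSCs were lowest, graft BM-MSCs intermediate and BM-MSCs highest. The means were 25.2 times higher in graft BM-MSCs and 69.0 times higher in BM-MSCs than in P-SSCs, the latter 41.9 times without BM-MSC 1.

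The log2 change was 4.61 ± 0.43 (SE) for graft BM-MSCs against P-SSCs (adjusted p = 7.17e-05, limma) and -5.88 ± 0.46 for P-SSCs against BM-MSCs (adjusted p = 3.29e-05). Graft BM-MSCs against BM-MSCs gave -1.26 ± 0.43 (95% interval -2.22 to -0.30, adjusted p = 0.106), with adjusted p of 0.0773 in edgeR and 0.0167 in DESeq2. Over single libraries left out the change lay between -1.69 and -0.73 and the adjusted p between 0.0755 and 0.332, and it was smallest without BM-MSC 1.

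Macrophages, which recycle iron, also express ferroportin. Of the 11 macrophage markers Adgre1, Cd163 and Spic were at 0 in all graft libraries, and Mrc1, Ptprc and Spic in all P-SSC libraries. The sum was 1446 to 13496 in graft BM-MSCs, 4774 to 16805 in BM-MSCs and 467 to 2632 in P-SSCs. Most of the sum in BM-MSC 1, 2+4 and 3 (4774, 16502 and 16805) came from Lyz2 (3329, 14374 and 16123), which neutrophils also express. The other markers had no common order in these 3 libraries. Cd163 (104, 1.05 and 0.986), Adgre1 (90.9, 86.5 and 0.986), Csf1r (205, 19.0 and 0), C1qa (225, 116 and 104) and Mrc1 (41.8, 0 and 0) were highest in BM-MSC 1, as Slc40a1 was. C1qb (385, 662 and 237), Cd68 (115, 558 and 109), C1qc, Ptprc and Spic were highest in BM-MSC 2+4. The part of macrophage RNA in the Slc40a1 values was not tested.

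Cp encodes ceruloplasmin, the copper ferroxidase that lets exported iron load onto transferrin. Its values were 17689, 21624, 27010 and 13753 in graft BM-MSC 1 to 4, 25071, 17137 and 17160 in BM-MSC 1, 2+4 and 3, and 1850, 647 and 1144 in P-SSC 1, 2+5 and 4. Graft BM-MSC and BM-MSC values overlapped, and both stood clear of P-SSCs. The means of graft BM-MSCs and BM-MSCs were 16.5 and 16.3 times that of P-SSCs.

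The log2 change of Cp was 4.13 ± 0.35 (SE) for graft BM-MSCs against P-SSCs (adjusted p = 4.37e-05, limma) and -4.13 ± 0.38 for P-SSCs against BM-MSCs (adjusted p = 8.53e-05). Between graft BM-MSCs and BM-MSCs the change was -0.0035, with a 95% interval of -0.78 to 0.78. Cp shares 108 of its 9566 exon bases with Hps3 on the opposite strand.

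Hp encodes haptoglobin, the plasma protein that captures free hemoglobin, and showed the largest differences of the 9. It was at 146949, 284773, 306676 and 91423 in graft BM-MSC 1 to 4, at 257653, 327759 and 280370 in BM-MSC 1, 2+4 and 3, and at 286, 178 and 15.5 in P-SSC 1, 2+5 and 4. Among all genes it ranked 3 to 12 in the 7 marrow libraries and 5781 to 11929 in P-SSCs, where its values rest on 275, 140 and 16 reads. The ratio of means was 1298 for graft BM-MSCs and 1806 for BM-MSCs over P-SSCs. Without P-SSC 1 these ratios were 2140 and 2977, and without P-SSC 4 they were 894 and 1244.

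The log2 change of Hp was 10.93 ± 0.83 (SE) for graft BM-MSCs against P-SSCs (adjusted p = 2.24e-05, limma) and -11.57 ± 0.88 for P-SSCs against BM-MSCs (adjusted p = 2.84e-05). The lowest marrow library was still over every P-SSC library, and within the libraries low in GC-rich genes the second change was -10.31 (adjusted p = 0.000820). Graft BM-MSCs and BM-MSCs overlapped and differed by -0.63 (95% interval -2.46 to 1.20).

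Neutrophils and adipocytes are other known sources of Hp. The 10 neutrophil markers summed to 5849 to 112660 in graft BM-MSCs, 30876 to 93455 in BM-MSCs and 33.9 to 287 in P-SSCs, with Mpo at 0 in all graft libraries and Mpo and Itgam at 0 in all P-SSC libraries. In graft BM-MSC 1 to 4 the sum was 5849, 12594, 112660 and 7585. The 2 libraries with the lowest sums, 1 and 4, also had the lowest Hp (146949 and 91423), and libraries 2 and 3 had 284773 and 306676. Library 4 had a higher sum than library 1 but less Hp. In BM-MSC 1, 2+4 and 3 the sums were 30876, 63268 and 93455, and Hp was 257653, 327759 and 280370, so there the 2 did not run together. Of 8 adipocyte genes 7 were in the table, with sums of 57986 to 157530, 82000 to 130470 and 4954 to 9338 in the 3 groups. Most of that sum came from Adipoq and Lpl. The lipid droplet genes Plin1 and Cidec were at 0 in all BM-MSC and P-SSC libraries, and Plin4 was at 0 in all graft libraries. The part of neutrophil and adipocyte RNA in the Hp and Trf values was not tested.

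**Figure D3:**
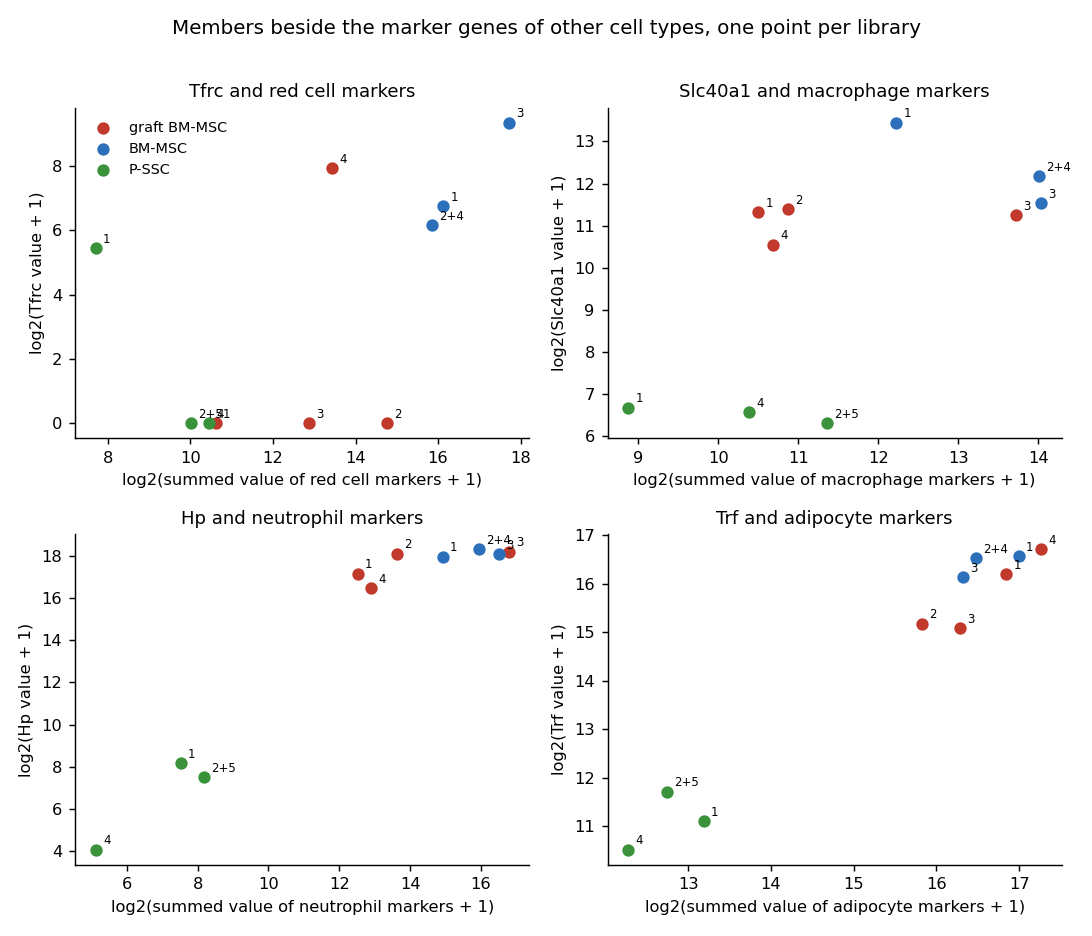
Log2(value + 1) of Tfrc, Slc40a1, Hp and Trf (vertical axes) against log2 of the summed value of red cell, macrophage, neutrophil and adipocyte markers + 1 (horizontal axes), with 1 point per library and the replicate number beside it. Tfrc is highest in BM-MSC 3, which has the highest red cell sum (214660). Hp is lowest among the graft libraries in 4 and 1 (neutrophil sums 7585 and 5849) and higher in 2 and 3 (12594 and 112660). Among the BM-MSC libraries Hp is highest in 2+4 and the neutrophil sum is highest in 3.

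Ireb2 encodes an iron regulatory protein, which binds the hairpins shown above and is itself degraded when iron is plentiful. Its values were 202, 256, 232 and 195 in graft BM-MSC 1 to 4, 163, 184 and 198 in BM-MSC 1, 2+4 and 3, and 134, 110 and 191 in P-SSC 1, 2+5 and 4. Graft values were all above P-SSC values by a small margin (195 against 191 at the nearest). The changes were 0.64 for graft BM-MSCs against P-SSCs (95% interval -0.53 to 1.80, adjusted p = 0.438, limma), 0.28 for graft BM-MSCs against BM-MSCs (adjusted p = 0.769) and -0.36 for P-SSCs against BM-MSCs (adjusted p = 0.932).

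**Figure D4:**
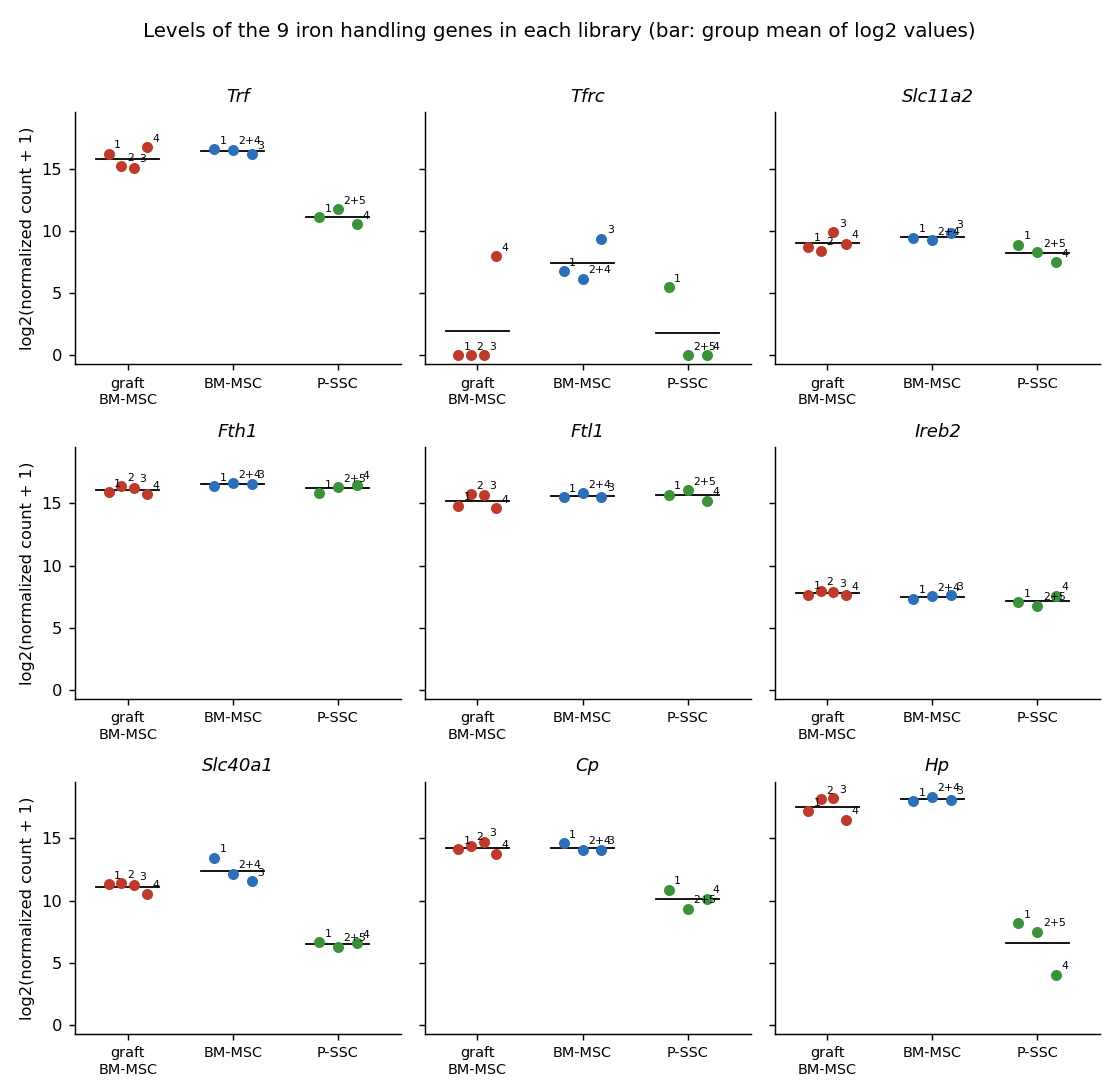
Log2(normalized count + 1) of the 9 iron genes in each library, with the replicate number beside each point and a bar at the mean of the group. Trf, Slc40a1, Cp and Hp are lower in every P-SSC library than in every marrow library, Fth1 and Ftl1 overlap between P-SSCs and both marrow groups, and Tfrc is at 0 in 3 graft and 2 P-SSC libraries.

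The 4 graft libraries formed opposite orders for different members. Graft BM-MSC 4 and 1 had the highest Trf (106779 and 75207) and the lowest Hp (91423 and 146949), Cp, Fth1 and Ftl1. Graft BM-MSC 2 and 3 had the lowest Trf (37036 and 34571) and the highest Hp, Cp, Fth1 and Ftl1. Adipocyte marker sums were also higher in libraries 4 and 1 (157530 and 117490) than in libraries 2 and 3 (57986 and 79860). Between libraries 2 and 3 the order of the sums was opposite to that of Trf. Most of each sum came from Adipoq and Lpl, and Adipoq was at 47085 to 83452 in BM-MSCs, where Plin1 and Cidec were at 0. Of the lipid droplet genes, Plin1 was detected in libraries 1 and 4 (151 and 924) and Cidec in libraries 3 and 4 (155 and 291). With 4 libraries no relation was tested.

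Levels of different genes were compared per kilobase of exon (union of all exons in GENCODE M21). In BM-MSCs the order was Hp (179700 ± 22272, SD), Ftl1 (38076 ± 4646), Fth1 (27507 ± 2254), Trf (26358 ± 4161), Cp (2069 ± 478), Slc40a1 (693 ± 481), Slc11a2 (116 ± 24.1), Tfrc (44.8 ± 52.7) and Ireb2 (19.2 ± 1.87). Fth1 and Trf did not differ beyond their spread, nor did Tfrc and Ireb2. In graft BM-MSCs the order was the same except that Ireb2 (23.3 ± 2.95) was above Tfrc (9.94 ± 19.9), and the levels of Ftl1 (29933 ± 11428), Fth1 (20127 ± 4321) and Trf (19096 ± 10357) lay within each other's spread.

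In P-SSCs the ferritins led with Ftl1 at 39617 ± 11215 and Fth1 at 22345 ± 5171 per kilobase. Trf (704 ± 288), Cp (127 ± 63.2) and Hp (99.5 ± 84.7) followed, and Cp and Hp did not differ beyond their spread. Slc11a2 was at 50.1 ± 23.3, Ireb2 at 15.3 ± 4.41, Slc40a1 at 10.1 ± 1.30 and Tfrc at 2.30 ± 3.98. With the length of the longest coding transcript in place of the union, Fth1 was above Ftl1 in both marrow groups (63870 and 52708 in BM-MSCs, 46734 and 41436 in graft BM-MSCs), and Slc40a1 was above Ireb2 in P-SSCs.

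The difference between Trf and its receptor within a library, log2 of (Trf + 1) over (Tfrc + 1) of the normalized counts, was 16.20, 15.18, 15.08 and 8.76 in graft BM-MSC 1 to 4. It was 9.80, 10.36 and 6.78 in BM-MSC 1, 2+4 and 3, and 5.65, 11.71 and 10.51 in P-SSC 1, 2+5 and 4. The 3 highest values belong to the graft libraries in which Tfrc had no read, so they depend on the pseudocount. Two-sided exact permutation tests gave p = 0.171 for graft BM-MSCs against either other group and 0.8 for P-SSCs against BM-MSCs. Adjusted over the 3 pairs these were 0.257 and 0.8. With a smallest possible p of 0.0571 (4 against 3 libraries) or 0.1 (3 against 3), the tests could not pass the threshold used here. They do not decide whether the groups differ in this ratio.

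A wider list of 56 iron genes was tested in the same fit, of which 48 were in the table. Graft BM-MSCs differed from P-SSCs in 10 of the 48 (3 higher, 7 lower), graft BM-MSCs from BM-MSCs in 5 (3 higher, 2 lower), and P-SSCs from BM-MSCs in 8 (1 higher, 7 lower). These are 20.8%, 10.4% and 16.7% of the 48, beside the 18.1%, 7.67% and 9.15% of all genes. In the first comparison the split was 7 higher and 5 lower after quantile normalization and 13 higher and 3 lower after the GC correction, and in the second 7 higher and 1 lower after the GC correction. Calls among 12 uptake genes numbered 4, 2 and 3 in the 3 comparisons, among 5 genes of export and hepcidin signalling 1, 2 and 2, and among 16 genes of mitochondrial iron and heme synthesis 3, 1 and 2. Among 10 genes of heme and hemoglobin salvage there were 2, 0 and 1, and among 5 genes of storage and sensing 0 in each.

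Steap3, an endosomal ferrireductase that reduces iron released from transferrin, was highest in P-SSCs. It was at 0, 28.7, 79.6 and 44.9 in graft BM-MSC 1 to 4, at 293, 586 and 1011 in BM-MSC 1, 2+4 and 3, and at 14026, 14684 and 5941 in P-SSC 1, 2+5 and 4. The 3 groups did not overlap. The log2 change of graft BM-MSCs was -9.20 ± 1.29 against P-SSCs (SE, adjusted p = 0.000697, limma) and -4.94 ± 1.29 against BM-MSCs (adjusted p = 0.0439), the latter not called without graft BM-MSC 2 or 4 or any 1 of the BM-MSC or P-SSC libraries (adjusted p up to 0.163) or with the split of GC-rich genes as a covariate (0.817). P-SSCs against BM-MSCs gave 4.26 (adjusted p = 0.0915).

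Scara5, a receptor for ferritin, was at 45870, 31795 and 37074 in P-SSC 1, 2+5 and 4. It was at 197, 2552, 8421 and 3224 in graft BM-MSC 1 to 4 and at 3875, 3690 and 4105 in BM-MSC 1, 2+4 and 3. The change was -4.30 ± 0.96 (SE) for graft BM-MSCs against P-SSCs (adjusted p = 0.0110, limma, and 0.0513 without P-SSC 1 and 0.171 with the GC split as a covariate). P-SSCs against BM-MSCs gave 3.28 with no overlap (adjusted p = 0.0816).

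Cybrd1, a ferric reductase of the cell surface, had no read in any graft library. It was at 92.9, 224 and 177 in BM-MSC 1, 2+4 and 3 and at 204, 31.8 and 28.1 in P-SSC 1, 2+5 and 4. Against a floor of 3 reads per library the means of BM-MSCs and P-SSCs were at least 66.8-fold and 35.7-fold higher than that of graft BM-MSCs (adjusted p = 0.00489 and 0.00452, limma), and without P-SSC 1 the second bound was 12.2-fold. With the split of GC-rich genes as a covariate neither was called (adjusted p = 0.341 and 0.0955). Steap4, another metalloreductase, had means of 11593 ± 2224 (SD, n = 3) in BM-MSCs, 6295 ± 2955 (n = 4) in graft BM-MSCs and 2237 ± 1025 (n = 3) in P-SSCs, and P-SSCs were lower than BM-MSCs, with a log2 change of -2.49 ± 0.46 (SE, adjusted p = 0.00535).

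Bmp6, the ligand that drives hepcidin expression in the liver, was highest in graft BM-MSCs. It was at 6766, 6022, 9827 and 6392 in graft BM-MSC 1 to 4, at 2081, 1720 and 1440 in BM-MSC 1, 2+4 and 3, and at 355, 276 and 1144 in P-SSC 1, 2+5 and 4. No 2 groups overlapped. The change was 3.88 ± 0.44 (SE) against P-SSCs (adjusted p = 0.000202, limma) and 2.04 ± 0.44 against BM-MSCs (adjusted p = 0.0214), and the latter was not called without any 1 of the BM-MSC libraries (adjusted p up to 0.0914). With the split of GC-rich genes as a covariate the changes were 2.64 (adjusted p = 0.00257) and 0.18 (adjusted p = 0.931). The covariate is set by P-SSC 4 against P-SSC 1 and 2+5, so both values depend on that library.

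Bmp2, a related ligand, was at 1271, 290, 541 and 376 in graft BM-MSC 1 to 4 and at 65.8, 35.9 and 29.6 in BM-MSCs, a change of 3.63 ± 0.90 (SE, adjusted p = 0.0375, limma). P-SSC 4, with 945, also stood above P-SSC 1 and 2+5 (75.8 and 157). Iscu, the scaffold of iron-sulfur cluster assembly, showed the same split. It was at 2200, 2886, 2023 and 2260 in graft BM-MSC 1 to 4, 1558 in P-SSC 4 and between 61.1 and 223 in the other 5 libraries.

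The change of Iscu was 3.57 ± 0.90 (SE) against BM-MSCs (adjusted p = 0.0392, limma) and 3.44 ± 0.90 against P-SSCs (adjusted p = 0.0238). With the split of GC-rich genes as a covariate the first turned to -0.73 (adjusted p = 0.843), and the change of Bmp2 against BM-MSCs became 0.53 (adjusted p = 0.925). Leaving out any 1 graft or BM-MSC library ended the call of Iscu against BM-MSCs (adjusted p up to 0.140), and leaving out P-SSC 1 or 2+5 ended its call against P-SSCs (up to 0.112). The call of Bmp2 was lost without graft BM-MSC 1, 3 or 4, any BM-MSC library or P-SSC 2+5 (up to 0.129).

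Between P-SSCs and BM-MSCs the largest changes of the wider list were in genes that blood cells express. Ltf (lactoferrin) and Lcn2 (a siderophore-binding protein), both granule proteins of neutrophils and members of the neutrophil list above, were at 3119, 14357 and 12334 and at 1040, 4979 and 7226 in BM-MSC 1, 2+4 and 3. Ltf had at most 1 read in any P-SSC library, a difference of at least 3028-fold against the floor, and Lcn2 was at 21.3 to 183 there. Adjusted p were 0.0119 and 0.0183 (limma). Without BM-MSC 2+4 or 3 both lost their call, and Lcn2 also without P-SSC 1 or 4, with adjusted p up to 0.0582 and 0.0932.

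Alas2, the enzyme that starts heme synthesis in red cell precursors, was at 967, 842 and 3396 in BM-MSC 1, 2+4 and 3 and had no read in P-SSCs. The adjusted p was 0.00968 (limma). Without BM-MSC 3, the library with the highest red cell sum, it was 0.0545. The part of red cell and neutrophil RNA in the values of Ltf, Lcn2 and Alas2 was not tested.

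**Figure D5:**
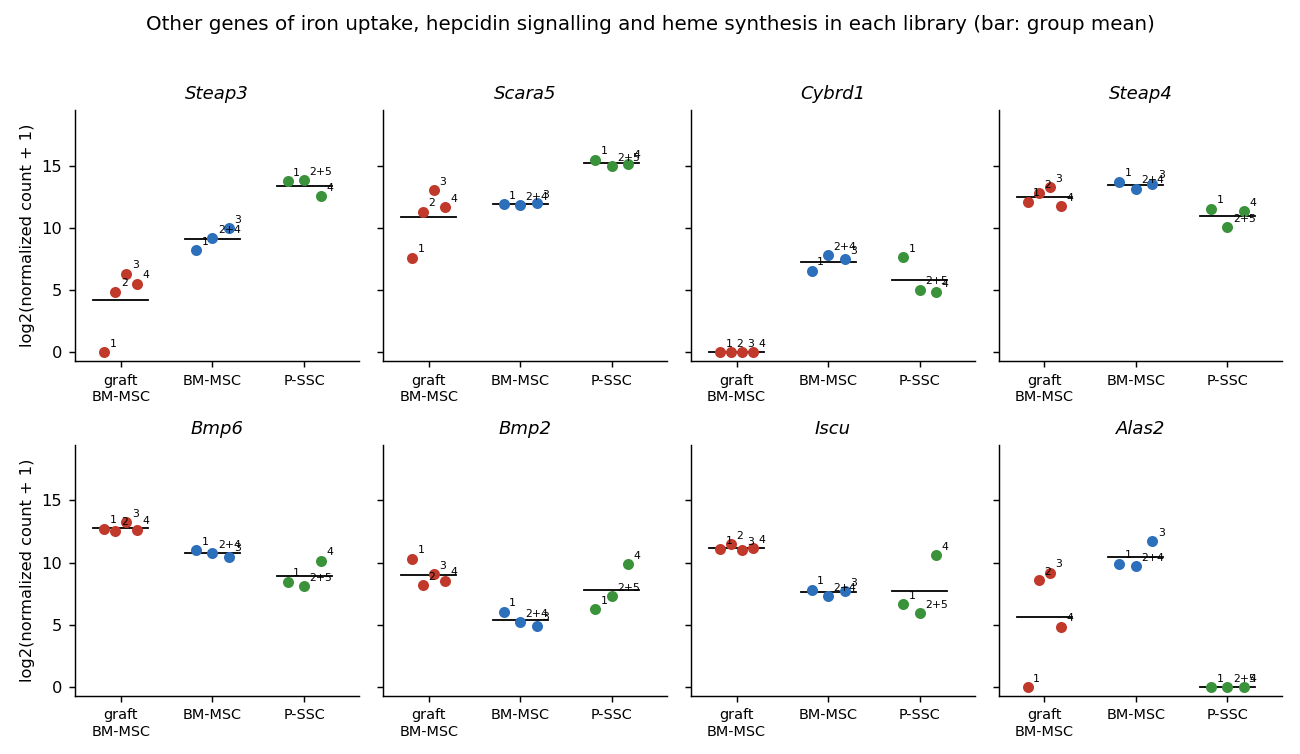
Log2(normalized count + 1) of 8 other iron genes in each library, with the replicate number beside each point and a bar at the mean of the group. Steap3 and Scara5 are highest in P-SSCs, Bmp6 in graft BM-MSCs, Cybrd1 has no read in the graft, and Bmp2 and Iscu in P-SSC 4 lie near the graft libraries.

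The genes whose log2(value + 1) followed Trf most closely over the 10 libraries were Cd1d1 (Pearson r = 0.985), Adipoq (0.983), Ager (0.981), Lifr (0.980) and Mmp13 (0.979), out of 9546 genes with a mean of at least 100. Those most like Hp were S1pr3 (0.995), H2-Q10 (0.993), Mgmt (0.989), Tmem176b (0.989) and Tmem176a (0.989). These values describe libraries that fall into marrow and periosteal clusters, so that a gene high in marrow and low in periosteum gets a high r whatever it does within a group. Within the graft, Adipoq was at 53102, 34596, 34855 and 76228 in libraries 1 to 4, highest in library 4 and then in library 1, as Trf was. Tmem176b was at 51020, 95931, 78064 and 40631, high in libraries 2 and 3 as Hp was. The other genes of these lists varied. Lifr and Mmp13 were highest in library 1 and then 4. Cd1d1 and Ager were highest in library 4 but not second in library 1. H2-Q10 and Tmem176a were highest in libraries 2 and 3. S1pr3 was lowest in library 2, and Mgmt was lower in library 2 than in library 1. All were chosen by r over the same libraries, so their order within the graft is no separate support.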

How the data were processed

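Cells were sorted, RNA was captured by poly(A), and libraries were sequenced by the authors. The submitters' processing notes name FastQC 0.11.5, cutadapt 1.15, STAR 2.5, featureCounts, Subread 1.4.6, DESeq2 1.26.0 and the build GRCm39, while the methods of the study name GRCm38 and another STAR version. The annotation, the strand setting and any filter on genes are not given in the sources used here, so overlapping, antisense and pseudogene reads may be shared. Values in the deposited table are a signal, reads per gene divided by a size factor of each library. Dividing by the value of 1 read gave whole numbers, within 0.1, for 100% of the values. Of the 15078 gene IDs, 15052 were found in GENCODE M21 (GRCm38), which gave coordinates, lengths and GC content.

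Values were analysed as log2(value + 1), so changes of low genes depend on the pseudocount and can be smaller or larger than the ratio of means. For Tfrc in graft BM-MSCs against BM-MSCs the log2 change was -5.44, while the ratio of means was 0.222. A mean of 10 or more was required (13644 genes kept, 1434 removed), and these genes were tested with limma 3.58.1 in R 4.3.3 on all 10 libraries, with 1 mean per group, 7 residual degrees of freedom, a variance trend, two-sided tests and Benjamini-Hochberg adjustment over all genes. Single values per library were compared by exact permutation with scipy 1.17.1. As alternatives, edgeR 4.0.16 (quasi-likelihood, TMM) and DESeq2 1.42.0 were run on the recovered counts, beside pseudocounts of 0.1 and 5, other filters, scalings and a GC correction (loess span 0.3), batch and block terms, a threshold of 0.01 and leaving out each library. The scripts were tested on simulated data. A floor of 3 reads was used for genes without reads.

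The members, the wider list and the marker lists were chosen with earlier results of these data known. The genes named are the 9 members, per comparison up to 5 called genes of the wider list with the largest changes, the 5 genes most like Trf and Hp, and markers beside a result. Of these, 1 gene of the wider list is not reported here. Same-numbered libraries did not deviate together (r of -0.0191 to 0.0295), so numbers were not treated as pairs.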

Additional observations from a re-analysis of the deposited data

Results flagged for a closer look

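In the graft group, 23 values were examined for a single library far from the other 3 (the members, the named genes of the wider list and the 3 ratios), and 4 had a gap to the nearest library that passed Dixon's limit for a group of 4. For independent values with a normal spread chance gives about 1 such value in 20. These values include counts at 0 and a ratio built on Tfrc, so 4 of 23 was not compared with chance. Tfrc was at 245.98 in graft BM-MSC 4 and at 0 in the other 3 graft libraries, and for that reason the log2 ratio of Trf to Tfrc was lowest there, at 8.756. Ltf and Lcn2, both in the neutrophil list, were at 8434.1 and 5767.4 in graft BM-MSC 3, the graft library with the highest neutrophil sum (112660), against at most 1095 and 873 in the other graft libraries. No explanation was tested for these values.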

How the results depend on the processing

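The 4 members called against P-SSCs were called in all 13 other settings and with each library left out for graft BM-MSCs. For P-SSCs against BM-MSCs they were called with each library left out and in all settings but the replicate block, which called 2 of 9 (Slc40a1 and Cp had adjusted p of 0.0716 and 0.0714). The block has 2 residual degrees of freedom. With it 0 other iron genes were called in any comparison, beside 269, 3 and 54 of all genes. It changed no other call of a member. Between graft BM-MSCs and BM-MSCs, 0 to 1 members were called over libraries left out and 1 with DESeq2.

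Other iron genes called numbered 4 to 16, 1 to 5 and 2 to 10 over libraries left out in the comparisons in the order given in the report. For graft BM-MSCs against P-SSCs they numbered 16 with the GC correction, 5 with only the 2 groups fitted, 2 with the GC split as a covariate and 4 at an adjusted p under 0.01. For graft BM-MSCs against BM-MSCs they numbered 8 with the GC correction, 0 with the GC split as a covariate, 1 with edgeR, 9 with DESeq2 and 1 at 0.01. For P-SSCs against BM-MSCs they numbered 13 within the GC-low libraries, 4 with edgeR, 13 with DESeq2 and 2 at 0.01. All genes called ranged over 1583 to 3005, 476 to 1584 and 917 to 1495 with libraries left out (in the comparison of the marrow groups, 476 and 477 without BM-MSC 2+4 and 3). They numbered 1081 and 40 with the GC split as a covariate in the comparisons with the graft. They were 1531, 316 and 619 with edgeR and 1332, 305 and 794 at 0.01. DESeq2 called 1948 for graft BM-MSCs against BM-MSCs, and 2040 were called within the GC-low libraries. For graft BM-MSCs against P-SSCs all genes called numbered 2556 with the GC correction and 1696 with only the 2 groups fitted. For P-SSCs against BM-MSCs all other settings, DESeq2 among them, gave 54 to 2040.

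Changes of uncalled members turned sign. For graft BM-MSCs against BM-MSCs the GC correction gave 0.34 for Trf, 0.51 for Fth1, 0.43 for Ftl1, 0.55 for Cp, 0.32 for Slc11a2 and 0.26 for Hp. The GC split as a covariate gave 0.28 for Trf, 0.24 for Ftl1, 0.59 for Slc11a2, 3.15 for Hp, -0.37 for Ireb2 and -0.73 for Iscu. The effect of that covariate comes only from P-SSC 4 against P-SSC 1 and 2+5. Quantile normalization gave 0.038 for Ftl1, 0.36 for Cp and 0.56 for Hp, the block 0.081 for Cp and 0.086 for Hp, DESeq2 0.017 for Cp, and libraries left out -0.16 to 0.18 for Cp. For graft BM-MSCs against P-SSCs, Fth1 became 0.32 and Ftl1 0.22 after quantile normalization, 0.89 and 0.49 after the GC correction, and Tfrc -0.096 with a pseudocount of 0.1 and -1.82 to 1.99 with libraries left out (-0.74 without P-SSC 2+5 or 4). For P-SSCs against BM-MSCs, Ftl1 became -0.064 with median centring or the GC correction, -0.19 after quantile normalization, -0.045 with edgeR and -0.17 to 0.25 with libraries left out (-0.033 without BM-MSC 1). None of these passed the threshold, and the cause was not tested.

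With libraries left out, graft BM-MSCs minus BM-MSCs ranged from -2.10 to 0.646 percentage points for the ferritin heavy share and from -0.127 to 0.0454 for the Trf share of reads. The log2 Trf to Tfrc ratio of P-SSCs minus BM-MSCs ranged from -0.89 to 2.13 (-0.79 without BM-MSC 3) and was -1.23 with a pseudocount of 5. A pseudocount of 0 was not run, because Tfrc had no read in 5 libraries. Values of Tfrc, Cybrd1 and, in P-SSCs, Hp rest on few or no reads in several libraries. Tfrc had 0 reads in graft BM-MSC 1, the library with the most reads (25223295), and 285 in graft BM-MSC 4 (16737727 reads). The cause was not tested.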

Other observations

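Other genes of the wider list, chosen after their values were seen, add to the picture of heme and iron-sulfur metabolism. Lrp1, a receptor that takes up heme bound to hemopexin, was at 32758, 23430 and 20367 in P-SSC 1, 2+5 and 4 and between 6895 and 15654 in the 7 marrow libraries. Its log2 change was -1.34 ± 0.29 (SE) for graft BM-MSCs against P-SSCs (adjusted p = 0.00914, limma) and 1.41 ± 0.31 for P-SSCs against BM-MSCs (adjusted p = 0.0154), but without P-SSC 1 these rose to 0.0546 and, without BM-MSC 1 or P-SSC 1, up to 0.0784. Graft BM-MSCs were lower than P-SSCs in Blvrb (biliverdin reductase B, -1.91 ± 0.46, adjusted p = 0.0163), Alas1 (the housekeeping enzyme of heme synthesis, -1.57 ± 0.43, adjusted p = 0.0294) and Nfs1 (the cysteine desulfurase of iron-sulfur clusters, -2.28 ± 0.67, adjusted p = 0.0385). All 3 lost their call without P-SSC 1 or P-SSC 2+5. Alas1 also lost it without graft BM-MSC 1, and Nfs1 without graft BM-MSC 2, 3 or 4 or BM-MSC 1 or 3. With libraries left out the adjusted p of the 3 genes went up to 0.0793, 0.123 and 0.160. With the split of GC-rich genes as a covariate Lrp1, Blvrb, Alas1 and Nfs1 were not called for graft BM-MSCs against P-SSCs. Hfe, a partner of transferrin receptors in hepcidin control, was lower in P-SSCs than in BM-MSCs (-1.47 ± 0.40, adjusted p = 0.0464), a call that only the omission of graft BM-MSC 1 or 2 left standing (up to 0.171).

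The genes of iron sensing and ferritin turnover did not pass in any comparison. Aco1, the other iron regulatory protein, had mean values of 830 ± 654 (SD, n = 4) in graft BM-MSCs, 2478 ± 574 (n = 3) in BM-MSCs and 2298 ± 285 (n = 3) in P-SSCs, with adjusted p of 0.138 and 0.112 for the graft against the 2 groups (limma). Ncoa4, which delivers ferritin to lysosomes, was at 746 ± 515, 1377 ± 361 and 1660 ± 317 (adjusted p = 0.231 and 0.106). Heph, a membrane-bound relative of Cp, was at 1041 ± 806, 1987 ± 1000 and 245 ± 31.7, and P-SSCs against BM-MSCs gave -2.87 (adjusted p = 0.0706).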
